A study of Mus musculus with 33 samples.

Results

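Basophils were cells of the single-cell libraries chosen by their marker UMIs, that is, cells with at least 1 UMI for at least 3 of 6 marker genes: Mcpt8, Cpa3, Ms4a2, Gata2, Prss34 and Fcer1a. A UMI is a molecular tag that counts each captured RNA molecule once. The rule found 312 basophils among 77728 kept cells (at least 500 UMIs and 200 genes, and at most 15% mitochondrial UMIs), 170 of 22362 in the IIA experiment and 142 of 55366 in the intracardiac experiment. Since the cells were selected on these UMI counts, the levels of the 6 genes, and every comparison of basophils with other cells, are given as descriptions with no test.

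The study used SAMENT, a niche labelling method that puts biotin on cells close to injected tumour cells. Mouse tissues were dissociated after an overnight labelling period with the SAMENT substrate and sorted into a biotin positive and a biotin negative fraction. The IIA experiment has 6 positive and 6 negative bone samples, numbered in the same way, which were hashtagged, pooled and read from the 5' end. The intracardiac experiment has 4 samples of each fraction in each of 4 tissues (bone, brain, liver and lung), read from the 3' end. The authors' key to the hashtags and their matrix spell the hashtag names differently, and the names were matched by number. All animals of both experiments thus received an injection and the substrate, and no group without them was analysed here. The tumour line and the strain, age and sex of the mice are not given in the labels, nor is the meaning of IIA. The labels do not say that the samples came from separate animals, so the p-values below measure only the spread between these samples, which may be technical. Because the capture end and the tagging chemistry differed, levels in the 2 experiments were set side by side without a test.

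Basophils are rare granulocytes that arise in bone marrow from progenitors expressing Gata2, and interleukin 3 drives their expansion. They carry the high affinity IgE receptor, and its crosslinking by antigen releases histamine, lipid mediators and type 2 cytokines such as interleukin 4. In mice they are told from tissue mast cells by the proteases Mcpt8 and Prss34 and by low Kit, whereas connective tissue mast cells contain chymases and tryptases such as Cma1, Mcpt4 and Tpsb2.

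Depth differed between samples. Basophils had a median of 4267 UMIs per cell in the IIA negative samples and 7018 in the positive ones, where all kept cells had medians of 3021 and 6501. At least 10 basophils were found in 14 of the 44 samples: 6 IIA negative, 4 bone negative, bone positive replicate 1, brain negative replicates 1 and 4, and liver positive replicate 1. In 12 samples there were none. No doublet caller was run. Of the 312 basophils, 15 were among the 5% of their sample's cells with the most UMIs, and 6 also met a B cell rule of at least 2 of 4 markers. Of kept cells, 715 shared a cell barcode with a cell of another library, 2 basophils among them, and no barcode was shared by basophils of different libraries. As a measure of free RNA, 3 of 1687 B-like cells in the IIA experiment (0.178%) and 3 of 5860 in the intracardiac experiment (0.0512%) met the basophil rule. B-like cells, with median depths of 1767 and 2431 UMIs, had a Cd200r3 UMI in 0.119% and 0.0171% of cells, a Kit UMI in 2.79% and 1.5% and an Mcpt8 UMI in 0.356% and 0.615%, which serve as background for the shares below.

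The label was checked on genes that the rule did not use, Cd200r3 and the mast cell genes. Cd200r3, an activating receptor of basophils and mast cells, had a UMI in 65.3% of IIA and 68.3% of intracardiac basophils. As a description of the choice itself, all 6 markers were found in 159 basophils, 5 in 56, 4 in 44 and 3 in 53. Either of the basophil proteases Mcpt8 and Prss34 was present in 273, both in 198 and neither in 39. Of 12 mast cell genes, 8 were at 0 UMIs in the IIA negative basophils, among them Cma1, Mcpt4, Tpsab1 and Mrgprb2. Gzmb of the same list went the other way and was higher than in other cells in every IIA negative sample. The summed level of the list there had a median of 170 CPM in basophils and 52.2 in other cells. In the 8 intracardiac samples with at least 10 basophils only Mcpt1 and Mcpt2 were at 0. For Cma1, Mcpt4, Tpsb2 and Tpsab1, 3 brain cells with at least 10 UMIs over these genes held 1041 of their 1042 UMIs in all 312 cells. These 3 cells, 2 of brain negative replicate 1 and 1 of the 2 brain positive basophils, had Kit, Cpa3, Ms4a2 and Gata2 but no UMI of Mcpt8. Of them, 1 cell of brain negative replicate 1 had UMIs of Prss34 and Cd200r3. All 3 had UMIs of Kit, Cma1, Mcpt4, Tpsb2, Tpsab1 and Mrgprb1 of the mast cell list. They stayed in the counts because the rule includes them.

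Cells just outside the threshold differed in several genes that the rule did not use. Exactly 2 markers were found in 239 cells, 125 in the IIA and 114 in the intracardiac experiment. Their median depth was 13291 and 27097.5 UMIs, compared with 4367 and 7123 in basophils. Kit, the stem cell factor receptor, had a UMI in 72.8% and 68.4% of them and in 21.8% and 20.4% of basophils. Cd200r3 had a UMI in 6.40% and 7.02% of the 2-marker cells, far below the shares in basophils. Within the rule, Cd200r3 was found in 33.3% of IIA cells with 3 markers and in 80.9% of those with all 6, and the intracardiac shares were 26.1% and 81.4%. Cd200r3 was thus found in a minority of the cells with 3 markers. IIA positive replicate 5 alone contained 64 of the 2-marker cells, of which 48 had Mcpt8 and Ms4a2 only. By that choice they lacked the other 4 rule genes. Cd200r3, which the choice did not use, had a UMI in 0% of them and in 0.382% of all other kept cells of that sample. Their median depth was 22151.5 UMIs and that of the other cells 10508.5. The histamine enzyme gene Hdc had a UMI in 95.8% of the 48 and 62.9% of the others, Cdo1 in 47.9% and 4.45%, and the heat shock gene Hspa1b in 68.8% and 17.4%. The neutrophil precursor genes Elane and Mpo had UMIs in all 48, in 87.5% and 80.4% of the other cells of that sample, and in 63.5% and 45.6% of the shallower B-like cells of the IIA experiment, so nothing is read from them. The part of depth in these shares was not tested.

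Of all UMIs of a protease in kept cells, the chosen cells held 99.7% for Prss34 and 88.8% for Mcpt8 in the IIA experiment, and 98.6% and 89.2% in the intracardiac experiment. Levels are in CPM, a gene's UMIs per 1000000 UMIs of a sample's basophils, summed over those cells. Prss34, a serine protease of basophil granules, had its lowest IIA negative value at 7621 CPM, its median at 13090 and its highest at 16896. The 4 bone negative samples had 5410, 3745, 10303 and 13122 CPM of Prss34. Other cells of the 14 samples with at least 10 basophils had at most 0.882 CPM. Every basophil sum lay above every sum of other cells. Mcpt8, the protease after which basophils are often identified, ranged from 3718 over a median of 7739 to 10142 CPM in the IIA negative samples. In bone negative samples Mcpt8 was at 3385, 1900, 9247 and 6348 CPM, and liver positive replicate 1 had 10535. In that liver sample 1 cell held 73.9% of the Mcpt8 UMIs and 81.4% of those of Prss34, and without it Mcpt8 was at 3643 CPM and Prss34 at 3309. In bone negative replicate 1 a single cell held 69.7% and 66.2% of them, and without it Mcpt8 was at 1232 and Prss34 at 2198 CPM. Without the cell richest in each gene, bone negative replicate 4 had 3924 CPM of Mcpt8 and 8134 of Prss34, and brain negative replicate 4 had 2493 and 7767 in place of 6019 and 12782.5. Other cells of the 14 samples had at most 4.63 CPM of Mcpt8. An Mcpt8 UMI was found in 84.7% of IIA basophils and in 2.51% of the other IIA cells, which is 144 basophils and 558 other cells, and IIA positive replicate 5, with its many 2-marker cells, had one in 15.2% of all its cells. Cpa3, a carboxypeptidase shared with mast cells, had a mean of 1691 ± 358 CPM (SD, n = 6) in IIA negative and 1922 ± 563 (SD, n = 4) in bone negative basophils.

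The IgE receptor subunits were the next members. Fcer1a, the IgE-binding alpha chain, was at 899 ± 426 CPM (SD, n = 6) in IIA negative and 645 ± 242 (SD, n = 4) in bone negative basophils. Its lowest IIA negative value was 165 CPM and its highest 1274. Ms4a2, the signal-amplifying beta chain, was steadier, at 717 to 1105 CPM in the IIA negative samples and 874, 587, 533 and 627 in bone negative samples. Gata2, the transcription factor required for basophil formation, was at 1530.5 ± 341 CPM (SD, n = 6) and 773.5 ± 310 (SD, n = 4), and was found in 95.9% and 97.9% of basophils. Only 64.5% and 48.2% of all Gata2 UMIs were in basophils, and 64.8% and 87.8% of those of Ms4a2. Both genes were thus also present elsewhere, while Fcer1a had 98.6% and 97.4% of its UMIs in basophils. The gamma chain Fcer1g, shared by many Fc receptors, was at 1079 ± 287 CPM (SD, n = 6) in IIA negative basophils and 1158 ± 106 in the other cells of the same samples, and these ranges overlapped.

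**Figure D1:**
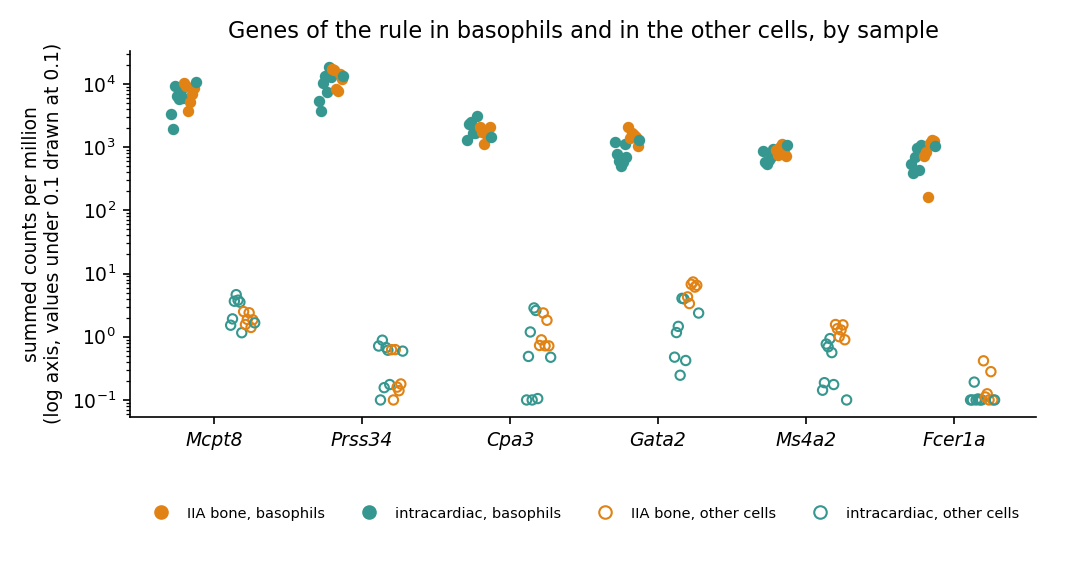
Levels of the 6 rule genes in basophils and in the other kept cells of the same sample, in CPM on a log scale, for the 14 samples with at least 10 basophils. Each point is 1 sample, and basophils lie above the other cells in every sample drawn, having been chosen on these genes.

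Promoter sequences are shown for 3 genes because GATA factors bind the letters searched here, and Gata2 was itself a rule gene. Windows from 250 bases before to 50 bases after the annotated start were taken from RefSeq (GRCm38.p6), 5' to 3' on the gene's strand. The letters AGATAA were searched on both strands, as was the motif AGATAG with its last base changed, and so were the motif TGATAA starting with another base and the motif TGATAG differing at both ends, and capitals mark each match, with abutting matches joined into 1 run. The windows are Ms4a2 at chr19:11623670-11623969 on the minus strand with 3 matches, Prss34 at chr17:25298144-25298443 on the plus strand with 1, and Cd200r3 at chr16:44943428-44943727 on the plus strand with 3.
Ms4a2: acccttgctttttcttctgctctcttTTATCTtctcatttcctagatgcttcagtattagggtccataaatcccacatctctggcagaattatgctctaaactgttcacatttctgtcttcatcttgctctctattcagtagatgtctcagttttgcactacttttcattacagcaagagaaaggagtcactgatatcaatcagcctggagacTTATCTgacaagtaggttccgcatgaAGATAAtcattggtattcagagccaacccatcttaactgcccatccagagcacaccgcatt
Prss34: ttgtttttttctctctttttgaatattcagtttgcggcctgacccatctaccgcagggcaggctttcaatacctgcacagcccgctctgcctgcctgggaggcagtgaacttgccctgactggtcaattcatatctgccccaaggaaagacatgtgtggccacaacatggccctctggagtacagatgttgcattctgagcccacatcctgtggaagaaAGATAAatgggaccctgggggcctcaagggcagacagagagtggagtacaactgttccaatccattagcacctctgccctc
Cd200r3: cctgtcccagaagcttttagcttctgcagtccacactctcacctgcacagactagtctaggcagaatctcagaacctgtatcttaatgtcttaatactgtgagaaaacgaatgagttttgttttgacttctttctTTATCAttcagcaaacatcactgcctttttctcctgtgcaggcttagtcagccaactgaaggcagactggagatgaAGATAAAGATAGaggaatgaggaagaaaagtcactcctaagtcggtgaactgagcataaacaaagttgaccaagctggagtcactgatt
A match was present for 4 of the 6 rule genes, namely Ms4a2, Prss34, Cpa3 and Fcer1a. Among the 20 leading genes described next, 16 were in the table and 8 had a match. Of all 32544 windows 29.6% held one, or 32.9% of 26742 genes. A match describes letters only and shows no binding.

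The genes that stood highest in basophils over other cells were ranked by the median log2 ratio of CPM over the 12 IIA samples, with 1 CPM added to both sides. The 6 positive samples among the 12 rest on 2 to 4 basophils each, while the intracardiac medians use the 8 samples with at least 10, so unlike samples enter the medians of the experiments. Rule genes were left out, and a UMI in at least 20% of IIA basophils was required. Cd200r3 led with a median log2 ratio of 7.94, and in the 8 intracardiac samples it was at 8.06. Its IIA negative values ran from 298 over 662 to 813 CPM, and bone negative samples had 499, 193, 299 and 284, while other cells of the 14 samples had at most 0.876 CPM. Over the 14 samples basophils had 141 to 897 CPM, so the groups lay far apart. Cyp11a1, the mitochondrial enzyme that turns cholesterol into pregnenolone, followed at 7.19 in the IIA samples. Csrp3, a LIM domain protein better known from striated muscle, had median log2 ratios of 7.07 and 8.10. Rnase12, of the ribonuclease A family, had 6.88 and 6.95. Of these 20 genes 15 were also among the 20 leading genes of the intracardiac samples.

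The other leading genes covered transport, adhesion and signalling. Slc18a2, the vesicular monoamine transporter that loads histamine into granules, had a median log2 ratio of 6.65 in the IIA and 6.22 in the intracardiac samples. Its level in IIA negative replicate 3 was 2047 CPM, but 1 cell gave 87.4% of those UMIs and without it the level was 316. The adhesion genes Cdh1 (E-cadherin) and Itga2b (the integrin alpha chain CD41) had IIA ratios of 6.32 and 5.97. Alox15, a lipoxygenase, had 5.97, and the growth factor gene Fgf3 had 5.70. Il4 and Il6, the type 2 cytokine interleukin 4 and interleukin 6, had log2 ratios of 5.54 and 4.58 in IIA samples and 5.27 and 6.73 in intracardiac samples. The chemokine gene Ccl3 had 4.32 and 5.65. In the 6 IIA negative samples alone Il4 was at 6.52, Il6 at 7.26 and Ccl3 at 6.01, and Il6 was higher in basophils in 8 of the 12 IIA samples. The prostaglandin receptor gene Ptger3 was at 4.43 and 4.10, the G protein subunit gene Gna14 at 4.76 and 3.71, and the organic cation transporter gene Slc22a3 at 4.67 and 5.37. Not every sample followed these medians. Gna14 was higher in basophils in 9 of 12 IIA and 6 of 8 intracardiac samples. Slc22a3 was higher in 7 of 12 IIA and in all 8 intracardiac samples, and Fgf3 in 8 of 12 and 7 of 8. Padi2, which converts arginine to citrulline in proteins, had 4.50 and 3.89, and Ikzf2 (Helios) had 4.65 and 4.34. The genes known only by clone or model names, 4930519L02Rik, Gm11697 and I730030J21Rik, had IIA ratios of 5.56, 5.29 and 5.07.

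**Figure D2:**
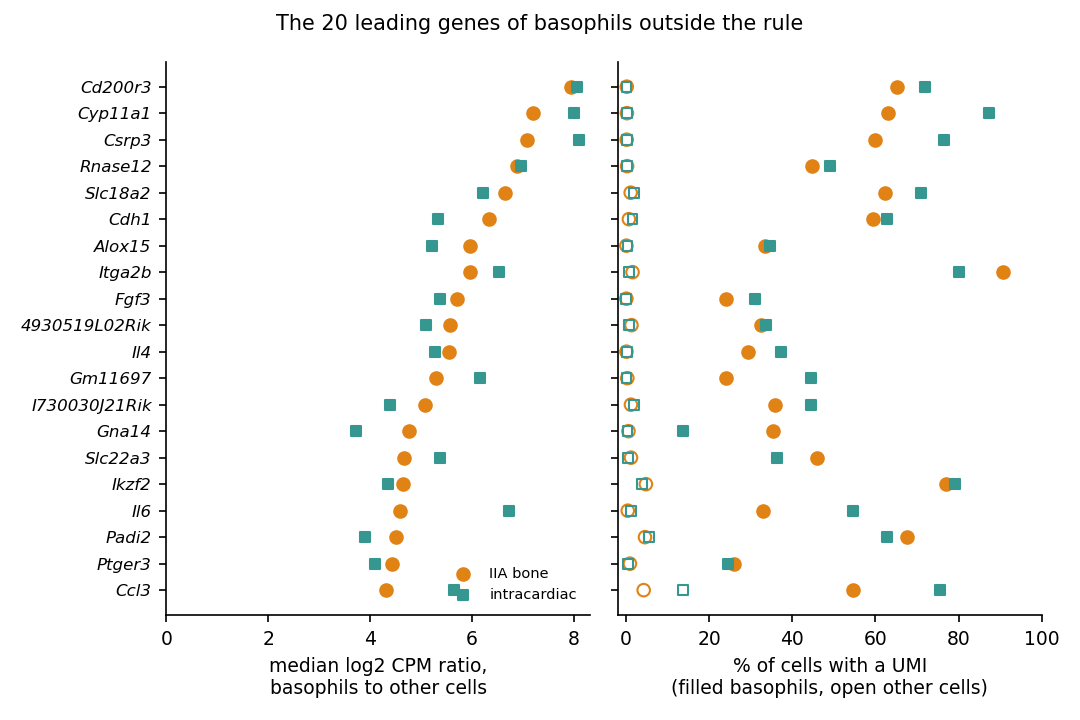
Median log2 ratio of CPM in basophils against other cells of the same sample (1 added to both) for the 20 leading genes, over 12 IIA and 8 intracardiac samples. Cd200r3, Cyp11a1 and Csrp3 lie highest in the IIA samples, and the IIA medians include the 6 positive samples of 2 to 4 basophils each.

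Other gene lists were described by how many members lay higher or lower in basophils than in other cells in every sample. In the 6 IIA negative samples 7.09% of 22633 genes were higher in every sample and 18.5% lower, and in the 8 intracardiac samples 3.45% of 22317 were higher and 11.7% lower. These counts come from the contrast that chose the cells, so nothing is read from them. Of 30 basophil genes outside the rule 21 were higher in every IIA negative sample and 18 in every intracardiac sample. In each experiment 1 was lower in every sample. The median log2 ratio over the 30 was 2.81 and 2.77, where all genes had -0.09 and -0.02.

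In IgE receptor signalling, 9 of 24 genes were higher in every IIA negative sample and 6 lower, and the same numbers in the intracardiac samples were 9 and 4. Besides the receptor chains, the higher genes were the adaptors Lat, Lat2 and Gab2, the kinases Fyn and Btk, the degranulation marker Cd63 and Cd200r3. Cd63 was at 1523 ± 167 CPM (SD, n = 6) in IIA negative basophils and 303 ± 27.6 in other cells. Lat2 ranged from 94.1 to 246 CPM, compared with 16.2 to 24.2 in other cells. The kinases Lyn and Syk were lower instead. Lyn was at 169 ± 39.3 CPM in basophils and 409.5 ± 44.9 in other cells, and Syk at 119 ± 26.0 and 250 ± 26.3 (SD, n = 6). Neither kinase overlapped between basophils and other cells in these samples.

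Among cytokine receptors and the STAT5 path, which carry the interleukin 3 signal, 13 of 26 genes were higher in every IIA negative sample and 6 lower. In the intracardiac samples 9 were higher and 1 lower. Il3ra, the alpha chain of the interleukin 3 receptor, was at 149 ± 55.1 CPM (SD, n = 6) and 17.5 ± 1.38 in other cells. Its partner Csf2rb was at 391.9 ± 124 and 129.5 ± 18.7. Il1rl1, the interleukin 33 receptor chain, ranged from 133 to 259 CPM in basophils and from 5.68 to 26.0 in other cells. Jak2, the kinase bound to these receptors, was at 430 ± 162 and 51.7 ± 6.61. In these genes the lowest IIA negative basophil sum lay above the highest sum of other cells.

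Mediators varied between samples. Of 24 type 2 cytokine and mediator genes 12 were higher in every IIA negative sample and 10 in every intracardiac sample, with 3 lower in each. Hdc, which makes histamine, was at 612 to 1916 CPM in IIA negative basophils with a median of 1090, and at 2122.5, 1042.5, 544 and 560 in bone negative basophils. Other cells of these groups had 102 to 442 CPM of Hdc, so the groups did not overlap although the gap was narrow. Il4 ranged from 43.6 to 299 CPM in the IIA negative samples with a median of 129, and had 41.6, 38.6, 48.0 and 25.1 CPM in bone negative samples. Il6 ranged from 124 to 1412 CPM with a median of 514, and had 583, 456, 282 and 226 in bone negative samples. Both cytokine genes stood above the other cells in all 14 samples with at least 10 basophils. Il13, the other classical type 2 cytokine, was at 19.5 ± 20.3 CPM (SD, n = 6) and at 0 in some samples, and Il9 had no UMI in IIA negative basophils.

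The chemokine genes Ccl3 and Ccl4, which attract monocytes and T cells, varied widely between samples. Ccl3 ran from 234 over 946 to 2646 CPM in IIA negative basophils, and was at 3385, 2710.5, 970 and 1957 in bone negative basophils. Ccl4 ran from 230 over 1767 to 4273, and was at 5050, 5035, 1498 and 2567.5 in bone negative basophils. In bone positive replicate 1, the only bone positive sample with at least 10 basophils, Ccl3 was at 325 and Ccl4 at 406 CPM, below all 4 bone negative samples. The other 3 bone positive samples, with 4 basophils each, had 2891, 6145 and 3377 CPM of Ccl3 and 5936, 10453 and 7311 CPM of Ccl4, so bone positive values lay on both sides of the negative ones. Single cells weigh on such sums, since 1 cell held 92.6% of the Ccl4 UMIs of IIA negative replicate 2, which had 2148 CPM with it and 181 without it, and 90.9% of its Il6 UMIs, with 194 and 20.1 CPM. Brain negative replicates 1 and 4 had 3014 and 4377 CPM of Ccl3. The immediate early and stress genes, which respond to dissociation as well as to stimulation, were also read from the basophil sums: 10 of 20 were higher in every IIA negative sample and 6 in every intracardiac sample, with 0 lower. Their summed level was 4889 to 9884 CPM in IIA negative basophils and 1918 to 2764 in other cells, and in the intracardiac samples 5358 to 27785 in basophils and 2480 to 9291 in other cells. Their part in the cytokine and chemokine levels was not tested. The growth factor genes Csf1 and Hgf were at 192 ± 115 and 280 ± 83.6 CPM (SD, n = 6) in IIA negative basophils, and in other cells of these samples at most 11.7 and 13.6 CPM.

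Of 21 lineage transcription factors 9 were higher in every IIA negative sample and 4 lower, and 6 and 2 in the intracardiac samples. Cebpa, which directs granulocyte fate, was at 302 ± 74.0 CPM (SD, n = 6) against 19.8 ± 1.41 in other cells. Runx1, needed for basophil development, was at 2334 ± 399 and 300 ± 11.7 CPM. Bone negative basophils had 305, 224, 314 and 393 CPM of Runx1, below the lowest IIA negative value of 1925, and the capture end also differed between these libraries. Its part in this gap was not tested. Gata1 was low, at 45.0 ± 17.2 CPM (SD, n = 6). Of 14 stem and progenitor genes 6 were higher in every IIA negative sample and 1 lower, the higher ones being Cd34, Meis1, Myb, Cdk6, Itga2b and Angpt1. Cdk6 was at 947 ± 353 and Angpt1 at 536 ± 174 CPM (SD, n = 6), compared with 158 ± 26.1 and 26.0 ± 6.31 in other cells. Kit itself overlapped, at 20.6 to 142 CPM in basophils and 19.1 to 31.0 in other cells.

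Among granule genes 8 of 16 were higher in every IIA negative sample and 5 lower, and 6 and 1 in the intracardiac samples. Srgn, the proteoglycan core that packs granule proteases, was at 3501 ± 353 CPM (SD, n = 6). Of 23 homing and adhesion genes 4 were higher and 7 lower in IIA negative samples, and 4 and 5 in intracardiac samples. Cxcr4, the receptor that holds cells in marrow, was at 177 ± 65.0 CPM against 67.3 ± 10.1 in other cells, and Cd47 at 673 ± 112 against 359 ± 18.9 (SD, n = 6). Itgam, the CD11b chain, ranged from 29.1 to 134 CPM and was below the 371.5 to 493.2 CPM of the other cells. Of 17 interferon stimulated genes in the files 1 was higher and 7 lower in IIA negative samples, and 1 and 2 in intracardiac samples. Cell cycle genes were higher for 5 of 24 and lower for 2 in IIA negative samples, and 0 and 0 in intracardiac samples. Hypoxia and glycolysis had 2 of 16 higher and 4 lower, and inhibitory and checkpoint genes 4 of 15 higher and 5 lower in IIA negative samples.

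Markers of other cell types were also read. Of 12 neutrophil genes 10 were lower and 1 (Mpo) was higher in every IIA negative sample, and 8 and 0 in the intracardiac samples. Their summed level in basophils ran from 3098 over a median of 5298 to 71587 CPM, against 214705 to 263421 in other cells. The highest sum came from IIA negative replicate 2, where 1 cell held 98.0% of the S100a8 UMIs, and without it S100a8 fell from 29438 to 722 CPM. Single cells held 96.5% of the S100a8 UMIs of brain negative replicate 1 and 95.4% of bone positive replicate 1. Elane had a UMI in 60.6% of IIA basophils and 63.5% of B-like cells, which should lack it, so in the IIA experiment it is read as background. In the intracardiac experiment the shares were 32.4% and 10.3%, with median depths of 7123 and 2431 UMIs. All 7 B cell genes were lower in every IIA negative sample. The macrophage and monocyte list had 9 of 13 lower and 1 (Apoe) higher, and the T and NK cell list 6 of 8 lower and 1 (Nkg7) higher. Erythroid genes were lower for 5 of 8 and higher for 0, plasmacytoid dendritic cell genes for 1 of 5 and 0, and of 5 megakaryocyte genes 3 were lower and Itga2b was higher.

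Of 6 eosinophil genes none was higher in every sample of either experiment, and their UMIs came from few cells, a pattern noticed after the values were seen. Prg2, the eosinophil major basic protein, had at least 10 UMIs in 12 basophils by the rule, which held 6349 of the 6351 Prg2 UMIs in all 312 cells. Of these 12 cells, 11 also had Epx, eosinophil peroxidase, which was found in 1.0% of the others. Cd200r3 had a UMI in 0 of the 12 and in 69.3% of the others. Mcpt8 was present in 11 of them, Cpa3 in 12, Ms4a2 in 8, Gata2 and Fcer1a in 7 each and Prss34 in 5. They made up 7 of the 21 IIA positive basophils, from 4 samples, and 3 of the 149 IIA negative ones, from 2 samples. The remaining 2 were a bone negative and a bone positive cell. Their median depth was 9789 UMIs and that of the other basophils 5190. In the 6 IIA positive samples Prg2 was at 16323, 18538, 55484, 60947, 0 and 0 CPM of the basophil sum, and in IIA negative samples these cells were present in 2 of 6.

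**Figure D3:**
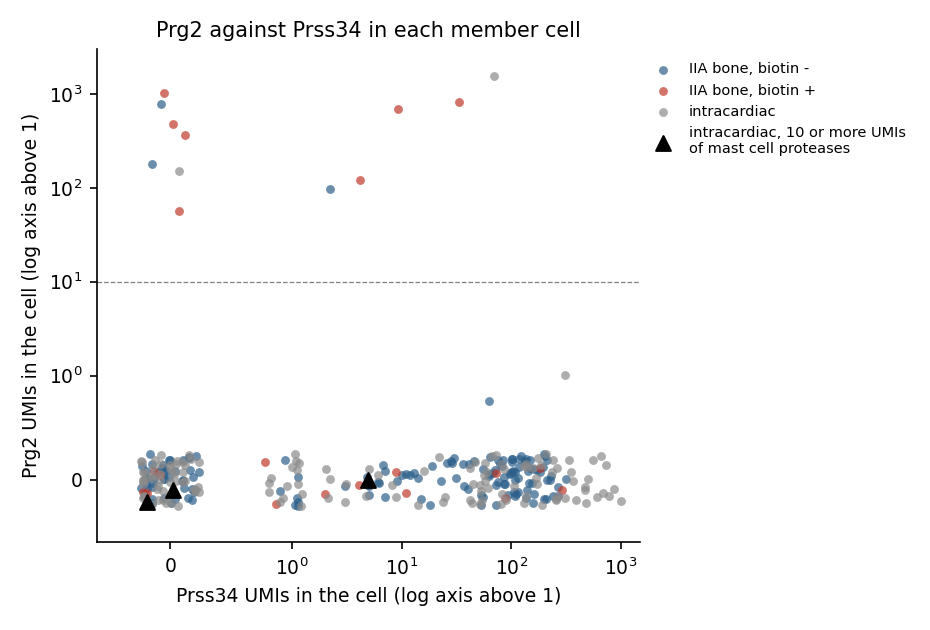
Each of the 312 basophils by its number of Prg2 UMIs and its number of Prss34 UMIs, on axes that are logarithmic above 1. Small offsets separate points at low counts. Triangles mark the 3 intracardiac cells with at least 10 UMIs of mast cell proteases. The dashed line is at 10 Prg2 UMIs, and 12 cells lie above it, of which 5 have a Prss34 UMI.

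The first comparison between sorted fractions was the share of basophils among kept cells. In the IIA experiment the 6 negative samples had 1.08%, 0.371%, 0.431%, 0.879%, 1.18% and 0.998%, from 10 to 41 basophils each. The 6 positive samples had 0.946%, 0.825%, 0.419%, 1.61%, 0.140% and 0.314%, from only 2 to 4 basophils each. The ranges overlapped widely. The 0.140% of positive replicate 5 lay below the 0.178% of IIA B-like cells that met the rule. Means were 0.822% ± 0.341 and 0.708% ± 0.536 (SD, n = 6), and the difference of -0.114 percentage points did not pass a two-sided exact permutation test (p = 0.669, adjusted p = 0.836 over 5 tests). The positive share was higher for 2 of 6 replicate numbers. Without IIA positive replicate 5 the difference was -0.000460. Without the 12 Prg2-rich cells, an analysis added after they had been seen, the difference was -0.350 (exact permutation p = 0.141), and with at least 2 markers in place of 3 it turned to 0.645 (exact permutation p = 0.149), IIA positive replicate 5 holding most of the added positive cells. With 924 assignments the smallest p possible was 0.00216.

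After intracardiac injection bone negative samples had 0.507%, 0.428%, 0.613% and 0.285% basophils and bone positive samples 1.10%, 0.391%, 0.645% and 0.462%. Bone positive replicate 1 was the highest of the 8, and the others overlapped. The difference of 0.190 percentage points did not pass (two-sided exact permutation test, p = 0.400, adjusted p = 0.762), although the positive share was higher in 3 of 4 replicate numbers. Without bone positive replicate 1 the difference was 0.0414, and with at least 2 markers in place of 3 it was 1.12. Brain negative samples had 0.732%, 0%, 0.0911% and 0.385%, and brain positive samples 0.181%, 0%, 0.323% and 0% from 1 cell each where present. Liver positive samples had 0.901%, 0%, 0% and 0%, so that 1 sample held all 11 basophils and without it the liver difference turned to -0.163, and liver negative samples 0.148%, 0.0401%, 0.386% and 0.0789%. Neither the brain difference of -0.176 nor the liver difference of 0.0620 percentage points passed (exact permutation p = 0.457 and 1). With Mcpt8 or Prss34 required, which leaves out 5 brain cells that lack both, among them both members of the positive samples, the brain difference was -0.269 (exact permutation p = 0.143), and without brain negative replicate 1 it was -0.0328. In lung 0 of 10584 negative cells met the rule, which allows a share of up to 0.0283% over the pooled cells and of up to 0.0974% to 0.135% in each sample, limits that cover counting error only, and the positive samples had 0.0651%, 0%, 0.164% and 0% from 4 cells in all. That lung difference did not pass either (exact permutation p = 0.429). Pooled over lung positive cells the share was 0.0545%, close to the 0.0512% of intracardiac B-like cells that met the rule. With 4 samples a group no p below 0.0286 was possible.

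**Figure D4:**
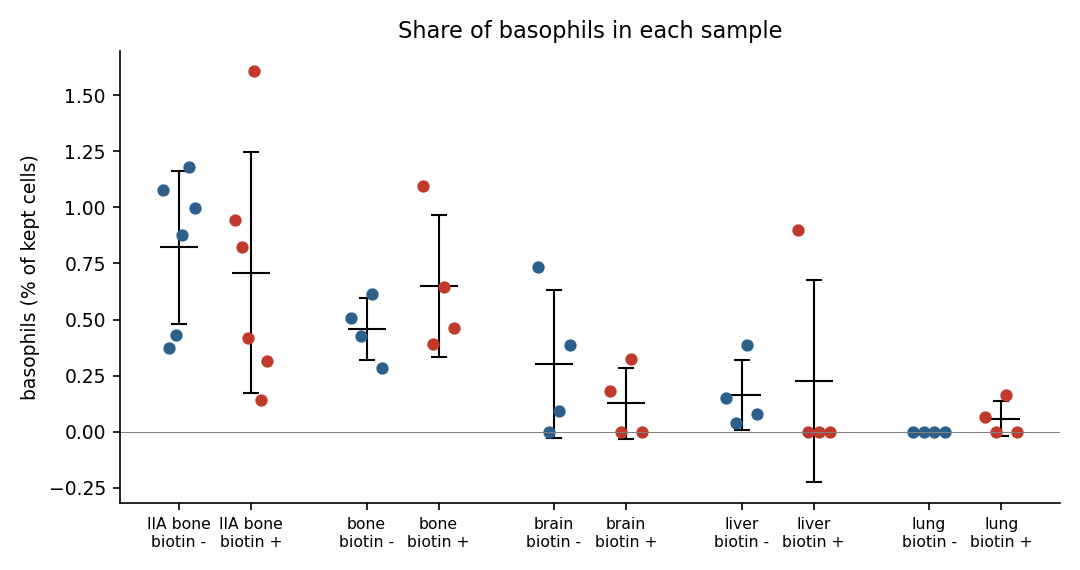
Basophils as a percentage of kept cells in each of the 44 samples, by tissue and biotin fraction. Points are samples and lines are group means. The IIA and bone group means lie highest, single samples of brain and liver lie among them, and most lung samples lie at 0.

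The tissues were then compared in the negative fraction, an analysis added after the shares had been seen. Bone held more basophils than lung by 0.458 percentage points, with all 4 bone samples above all 4 lung samples, at the smallest p that 4 against 4 allows (two-sided exact permutation test, p = 0.0286, adjusted p = 0.0857 over 3 tests). Against liver the difference was 0.295 (exact permutation p = 0.0571, adjusted p = 0.0857) and against brain 0.156 (exact permutation p = 0.40). None passed after adjustment.

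Depth differed between the fractions, as given above, and its part in the shares was examined by thinning. When each cell was thinned to 2000 UMIs and shallower cells were left out, mean IIA shares were 0.878% in negative and 0.256% in positive samples. This left out 5042 negative and 1041 positive cells. The difference of -0.622 percentage points had p = 0.0130 in the exact permutation test and an adjusted p of 0.0649, so it did not pass after adjustment. Bone shares became 0.417% and 0.581%, and brain shares 0.274% and 0%. Liver shares became 0.183% and 0.238%, and lung shares 0% and 0.0311%. The difference in share between fractions was also compared among IIA bone and intracardiac bone, brain, liver and lung. Pairs with IIA bone cross the experiments. None of the 10 pairs passed (smallest exact permutation p = 0.229, adjusted p = 0.821).

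Gene levels were next compared between biotin positive and negative basophils of the IIA experiment, with UMIs summed per sample. The comparison is thin, since the positive sums rest on 2 to 4 cells each. The filter on low counts asks for enough UMIs in only as many samples as 1 fraction holds. A gene could thus be tested through the fraction in which it was high, and a lack of overlap below is a description only. Of 693 genes that could be tested, edgeR's quasi-likelihood test called 3 at a Benjamini-Hochberg adjusted p under 0.05, which is 0.433%, with 1 of them (0.144%) higher in positive samples, and 130 (18.8%) had an unadjusted p under 0.05. In the other cells of the same samples 6336 of 12588 genes were called, or 50.3%, and 3403 of these (27% of all tested) were higher in positive samples. Rule genes were fitted with the rest but, having chosen the cells, are given as values only.

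Sun2, which links the nucleus to the cytoskeleton, was higher in positive basophils. Its positive values were 291, 272, 527, 349, 409 and 387 CPM and its negative values 216, 141, 94.1, 94.5, 169 and 119. The groups did not overlap, and edgeR put the log2 difference at 1.49 (SE 0.28, adjusted p = 0.0484). In the other cells of these samples Sun2 had a log2 fold change of -0.12 (edgeR adjusted p = 0.695). Ikzf2, the Helios transcription factor and 1 of the 20 leading basophil genes, was lower. It had 127, 272, 431, 174, 136 and 232 CPM in positive and 515, 634, 777, 669, 975 and 703 CPM in negative basophils, with no overlap, and the log2 difference was -1.54 (SE 0.31, edgeR adjusted p = 0.0484). In the other cells Ikzf2 fell as well, by 1.87 on the log2 scale (edgeR adjusted p = 5.28e-05).

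Tnfaip3, the A20 enzyme that restrains NF-kappaB signalling, was the other gene that passed. It had 18.2, 22.7, 95.8, 174, 0 and 232 CPM in positive basophils and 741, 440, 1200, 298, 896 and 257 CPM in negative ones. Every positive sum lay below every negative sum, and the log2 fold change was -3.36 (SE 0.69, edgeR adjusted p = 0.0484). In the other cells it was 0.90 (edgeR adjusted p = 0.179). Whether basophils differ from the other cells in these responses was not tested. All 3 calls lay close to the threshold and depended on the settings: over the alternatives tried, Ikzf2 was called in 11 of 20, Sun2 in 9 of 19 and Tnfaip3 in 8 of 20, always in the same direction. With the replicate number as a block none of the 3 was called (edgeR adjusted p = 0.166 for each). Their log2 fold changes were then -1.56 for Ikzf2, -3.25 for Tnfaip3 and 1.48 for Sun2, close to those reported. Without the Prg2-rich cells, which were 7 of the 21 positive basophils, Ikzf2 was still called (edgeR adjusted p = 0.0333). Tnfaip3 was not (edgeR adjusted p = 0.201), with a log2 fold change of -2.81 (SE 0.81). Sun2 did not reach the count needed for the test.

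**Figure D5:**
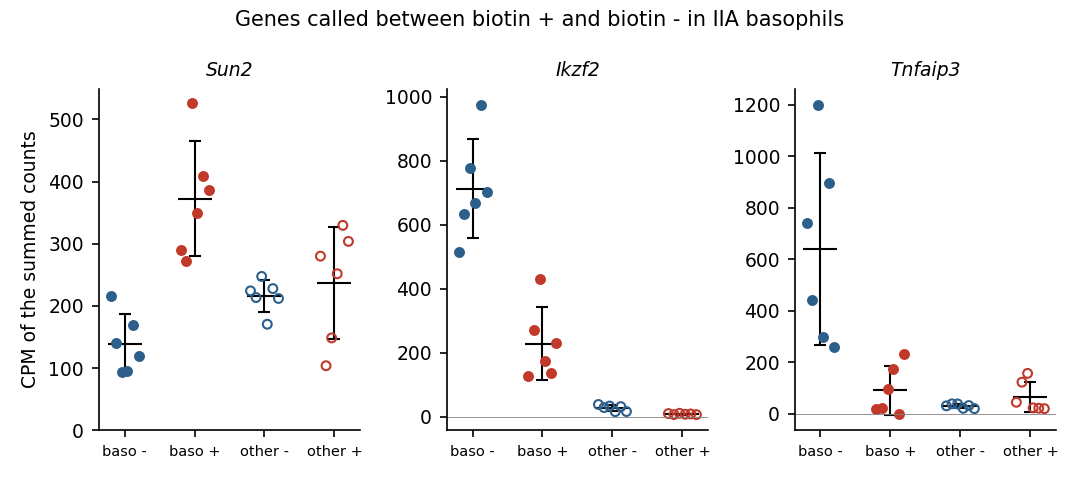
Levels in CPM of Sun2, Ikzf2 and Tnfaip3 in basophils and in other cells of the 6 biotin negative and 6 biotin positive IIA samples. Each point is 1 sample, and bars give mean and SD. In basophils the fractions do not overlap for any of the 3 genes. In other cells they overlap for Sun2 and Tnfaip3.

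Other basophil genes are given as values. The rule gene Prss34 was at 0, 4447, 288, 2703, 7860 and 13997 CPM in the 6 positive samples, against 7621 to 16896 in the negative ones. Mcpt8 was at 127, 2428, 383, 1134, 3876 and 13379 CPM, against 3718 to 10142. As rule genes, both are given with no test. Cd200r3 had a log2 fold change of -1.50 (edgeR adjusted p = 0.257). Replicates 1 and 3, lowest for both proteases, were among the 4 samples with Prg2-rich cells, and the part of those cells in these levels was not tested. Prg2 itself had a log2 difference of 5.02 (SE 1.77, edgeR adjusted p = 0.15). Over all cells of a fraction, Il6 had 2 UMIs in the 21 positive basophils and 355 in the 149 negative ones, or 11.0 and 487 CPM. Il4 had 232 CPM in positive and 150 in negative basophils by the same pooling, and Ccl3 had 619 and 1015. Positive replicate 2 gave 36 of the 42 Il4 UMIs and 84 of the 112 Ccl3 UMIs, and without it Il4 was at 43.8 CPM, below the negative level, and Ccl3 at 204. The 2 Il6 UMIs of positive basophils came from replicates 2 and 5, with 1 in each. Leaving out each sample gave 6.92 to 15.9 CPM, but with so few UMIs this range could not be wide. Nothing is read from it, and the pooled levels are given with no test.

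In bone after intracardiac injection no gene passed. Of 1304 genes tested, edgeR and DESeq2 each called 0, and 18 (1.38%) had an unadjusted p under 0.05 in edgeR. The positive arm was uneven, with 22 basophils in replicate 1 and 4 in each of the other 3 samples. Replicate 1 also differed from the rest in level: Il6 was at 56.5 CPM there and at 665, 345 and 885 CPM in the other 3 positive samples, while the negative samples had 226 to 583. Pooled over the 34 positive basophils Il6 was at 179 CPM and Ccl3 at 993, and without replicate 1 they were at 678 and 3713. The 51 negative basophils had 356 and 1987 CPM, so the direction of the pooled difference turned with that 1 sample and no difference between the fractions is read from it.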

How the data were processed

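The deposited matrices hold whole UMI counts, which the authors made with cellranger 6.1.2 (intracardiac) and 7.1.0 (IIA pool) per the file headers. Cell Ranger, Seurat and mm10 are named in the submitters' processing notes. Of 83731 barcodes, 26666 were in the IIA pool, of which 22685 were assigned to a hashtag with at least 10 counts and 3 times the second. Cells with at least 500 UMIs, 200 genes and at most 15% mitochondrial UMIs were kept.

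The members and gene lists were chosen with earlier results of these data known. Named were the rule genes, the 20 genes leading over other cells, the genes past the threshold in the biotin comparison and members of 23 lists. Counts summed per sample were tested with edgeR 4.0.16 (TMM, filterByExpr) at an adjusted p of 0.05, and with DESeq2 1.42.0 as an alternative. R 4.3.3, Python 3.11.15, numpy 2.4.6, scipy 1.17.1, pandas 2.3.3 and matplotlib 3.10.9 were used. The script was tested on simulated counts. A planned minimum of 10 basophils per sample left 0 IIA positive samples and 1 bone positive sample, so a minimum of 2 was used, chosen after seeing the data. The test of whether basophils and other cells respond differently to the biotin sort was not run. Bone samples with the same replicate number deviated together (r = 0.450 to 0.739 over genes in other cells), so they were taken as pairs in an alternative.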

Additional observations from a re-analysis of the deposited data

Results flagged for a closer look

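Among 61 groups of 4 to 6 samples examined for a sample far from the others, 8 had one, where chance gives about 1 in 20. The liver positive share of basophils was 0.901% in replicate 1 and 0% in the other 3 samples. Slc18a2 in IIA negative basophils was at 2047 CPM in replicate 3, where 1 cell held 87.4% of the UMIs, and the next sample was at 727.

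The other 6 were bone negative basophil levels. Csrp3 was lowest at 213 CPM, with the next sample at 284. Fgf3 was lowest at 0 CPM, where the next had 37.3. Cdh1 was highest at 180 CPM with 100.4 next, Itga2b at 286 CPM with 194 next, 4930519L02Rik at 216 CPM with 69.3 next and Padi2 at 291 CPM with 100.4 next. The bone negative sums rest on 10 to 15 basophils each.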

How the results depend on the processing

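Requiring at least 2 markers in place of 3 turned the IIA difference in share to 0.645 percentage points (exact permutation p = 0.149), and took bone negative against liver negative to 0.546 and against lung negative to 0.736, each then passing (exact permutation, adjusted p = 0.0429). The liver difference between fractions ran from -0.163 to 0.137 when each sample was left out, negative without liver positive replicate 1. The other share differences kept their direction, and none passed, under the alternatives run, but single samples moved them. Leaving out each sample gave -0.294 to -0.000460 in IIA bone (without positive replicates 4 and 5), 0.0414 to 0.276 in bone (without positive replicates 1 and 2), -0.277 to -0.0328 in brain (without negative replicates 2 and 1), 0.0217 to 0.0765 in lung (without positive replicate 3, and without 2 or 4) and 0.0554 to 0.300 for bone against brain (without brain negative replicates 2 and 1). The lung cell numbers could not be fitted in edgeR.

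The number of genes called in IIA basophils, 3 as reported, was 40 in DESeq2, 47 with Mcpt8 or Prss34 required and 16 without the 5% of cells with most UMIs, and these calls held all 3 reported genes. It was 304 with no filter on low counts, without Sun2 (edgeR adjusted p = 0.149), and 30 with at least 4 markers, none of them a reported gene (edgeR adjusted p = 0.0869 for Sun2 and Tnfaip3 and 0.120 for Ikzf2). Leaving out each sample gave 0 to 45. The count was 45 when positive replicate 6 was left out, 26 for positive replicate 4, 7 for positive replicate 3 and 5 for negative replicate 1. It was 0 on leaving out positive replicate 1 or any of negative replicates 2 to 6, and it was 3 without positive replicate 5 (Angpt1, Klhl6 and Slc22a3), none of them a reported gene. Without the 12 Prg2-rich cells, with 5 positive samples left, edgeR called 2 genes, Ikzf2 and Auts2. Tnfaip3 was not called (edgeR adjusted p = 0.201), with a log2 fold change of -2.81 (SE 0.81) against -3.36 as reported. Sun2 was too low to be tested. The bone basophil count of 0 became 18 with no filter. The causes were not tested.

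A replicate block, which pairs samples with the same number, gave 1 call in IIA basophils, Auts2. None of the 3 reported genes was called under it (edgeR adjusted p = 0.166 for each), although their log2 fold changes stayed close to those reported. Genes named here beside the reported 3 were picked after their values were seen. IIA samples with the same number correlated at 0.0738 to 0.569. Replicates 2, 4 and 6 correlated best with their own number and replicates 1, 3 and 5 did not, so whether the numbers pair these samples was not settled, and both fits are given. The block gave p = 0.688 for the IIA share (exact sign-flip permutation) and changed no share call. A minimum of 20 basophils per sample and the test of unlike responses in basophils and other cells were not run. The positive IIA sums of 2 to 4 cells limit what could be detected.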
